A study of Mus musculus with 2 samples.

Results

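The genes of the proteasome were followed in the embryonic mouse heart through 39 genes, chosen as all rows of the gene tables whose symbol was Psma, Psmb, Psmc or Psmd and a number. They were 39 of 43346 rows with an Ensembl gene identifier. They were chosen by name, with their level (TPM), their expected counts and the difference between the libraries as the measured values the choice rests on, so these are described here without a test. The study measured total RNA of the heart of B6NCrl embryos, a C57BL/6 substrain, at embryonic day 14.5, in 1 group of 2 libraries. Each library is labelled as a single heart from pup 1 of pregnant 2, collected on July 17 for replicate 2 and on July 15 for replicate 1. The hearts share strain, age, the mirVana extraction, 10 ng of input RNA above 200 nt and added spike-in RNAs, and no treatment or allele is labelled. Heart, collection day and the sex read from sex-linked transcripts (below) differ together, so they cannot be told apart. The 2 hearts of 1 group allow no test of a condition.

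The proteasome is the barrel-shaped protease that degrades proteins tagged with ubiquitin. Its 20S core is built of rings of alpha subunits, which gate the entry, and rings of beta subunits, some of which carry the protease sites. A 19S cap binds ubiquitin chains, removes them, and unfolds the substrate with a ring of ATPases (the base) under a scaffold of further subunits (the lid). The catalytic beta subunits can be exchanged for immune counterparts that interferon induces, other variants are kept to thymus and testis, and cardiac muscle depends on the system to turn over sarcomere proteins.

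Replicate 2 held 28958839 expected counts and replicate 1 held 28537173. Of the counts on gene rows, the 39 genes took 0.554% in replicate 2 (95% interval by Wilson's method, 0.551% to 0.557%), against 0.545% in replicate 1 (0.543% to 0.548%), where intervals cover counting error only. The defining cardiomyocyte transcripts were abundant in both, with Tnnt2, cardiac troponin T, at 5706 TPM in replicate 2 against 6128 TPM in replicate 1. Erythroid transcripts were mostly lower in replicate 2, and 10 of 10 erythroid markers were at 1 TPM or more in both libraries. They summed to 34791 TPM in replicate 2 against 61171 TPM in replicate 1, with 9 lower in replicate 2 and Hbb-bh1 higher. The 12 leukocyte markers were likewise all at 1 TPM or more and summed to 254 TPM in replicate 2 against 278 TPM in replicate 1. Of these 12, 10 were lower in replicate 2, and C1qa and C1qc were higher. Over all 11958 genes that averaged 100 counts or more, 6109 were lower in replicate 2. Both sex labels read pooled male and female, yet Xist had 13912 expected counts in replicate 2 and 15.7 in replicate 1, and Ddx3y, Eif2s3y, Kdm5d and Uty were at 0 in replicate 2 and between 965 and 2310 in replicate 1. By these transcripts replicate 2 reads as female and replicate 1 as male, against the labels. Sex thus differs between the hearts along with the collection day, and its part in any difference below was not tested.

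Transcripts of nearly the whole family were detected, and 35 of the 39 genes were at 5 TPM or more in both libraries. Of the 39 genes, 38 were at 1 TPM (a level per length that the authors scaled to a sum of 1000000 over all rows) or more in both libraries, while 14277 of all gene rows reached that level in replicate 2 and 14091 in replicate 1. The median level of these 38 was 157 TPM in replicate 2 against 160.0 TPM in replicate 1, and their median mean TPM was 159 ± 2.34 (SD of the library medians, n = 2). The exception was Psmb11, the beta subunit of the thymus-specific proteasome, with 1 count in replicate 2 and 0 in replicate 1. A count of 0 allows up to 3 counts, or 0.0346 TPM, for this gene in replicate 1. Of 6 further thymus epithelium markers 4 were at 1 TPM or more in both libraries, and Foxn1, the transcription factor that defines this epithelium, was at 0 in both. In bulk tissue, fewer cells of a type and less RNA per cell cannot be told apart.

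**Figure D1:**
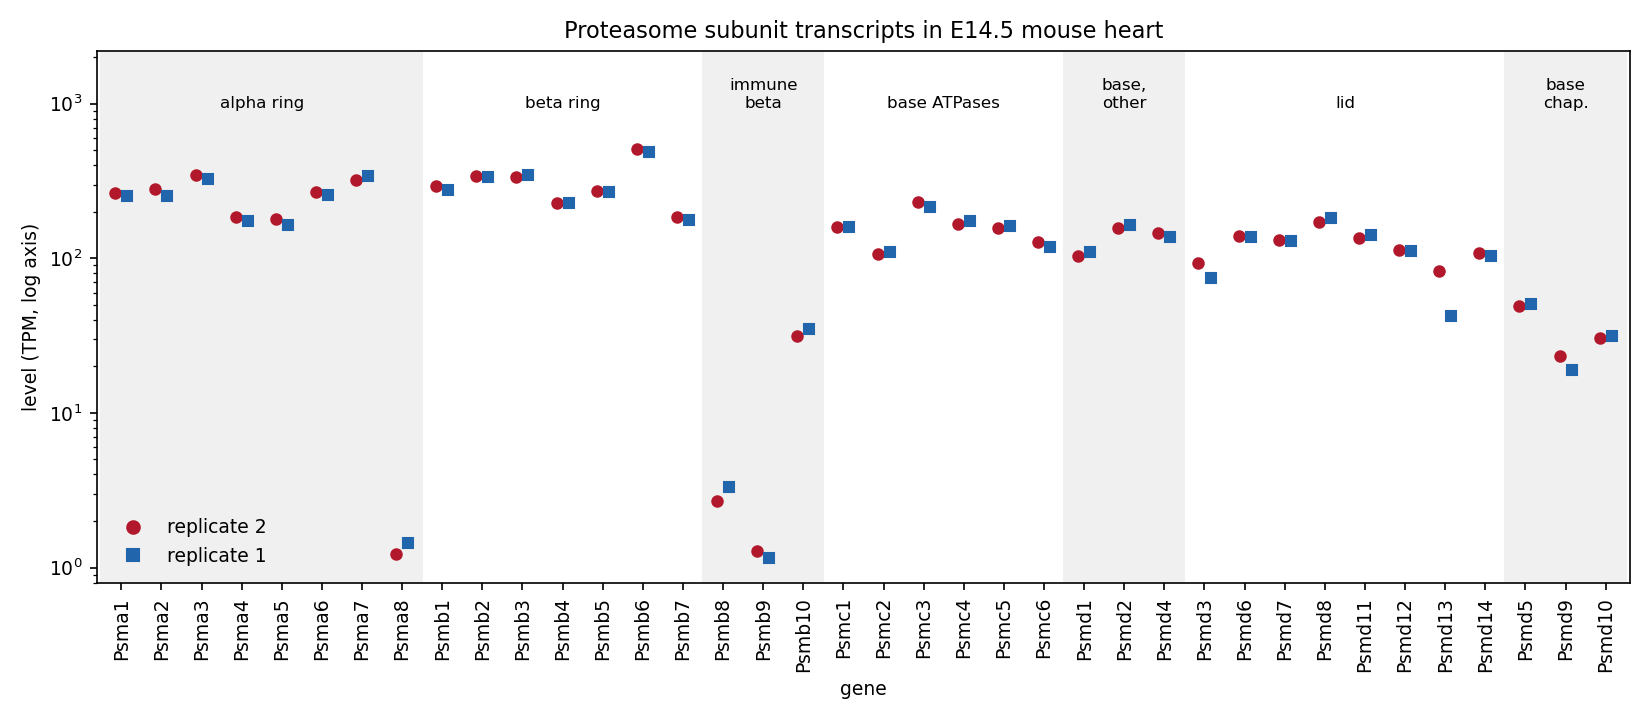
Level of 38 subunits in TPM on a log axis, with replicate 2 as circles to the left of replicate 1 as squares; Psmb11, at 0.01 and 0.00 TPM, is not drawn. The alpha and beta rings lie above most of the cap, Psma8, Psmb8 and Psmb9 lie below 5 TPM, and Psmd13 has the widest gap between the libraries among the subunits above that level.

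The 7 widely expressed subunits of the alpha ring spanned 1.92-fold in replicate 2 and 2.07-fold in replicate 1. Their median was 268 TPM in replicate 2 against 255 TPM in replicate 1. Psma3 was at 346 TPM in replicate 2 against 327 TPM in replicate 1, and Psma7 was at 320.2 TPM in replicate 2 against 340.4 TPM in replicate 1. Psma3 was thus the higher of the pair in replicate 2 and the lower in replicate 1, so their order was not fixed beyond the spread of the libraries. Psma2 (281 TPM in replicate 2, 255 TPM in replicate 1), Psma6 (268 TPM in replicate 2, 255 TPM in replicate 1) and Psma1 (265 TPM in replicate 2, 252 TPM in replicate 1) formed a tight group under them. Psma4 (185 TPM in replicate 2, 174 TPM in replicate 1) and Psma5 (179.5 TPM in replicate 2, 164 TPM in replicate 1) were the lowest of the ring in both libraries. Over protein coding transcripts only, Psma3 was the lowest instead, at 90.4 TPM in replicate 2 against 90.9 TPM in replicate 1, with most of its level on transcripts annotated as retained introns or for decay. Psma8, the alpha subunit that takes the place of Psma7 in spermatocytes, was at 1.22 TPM (41 counts) in replicate 2 and 1.44 TPM (48 counts) in replicate 1. Its level was 249-fold below that of Psma7. Of 8 germ cell markers, Stag3, a meiotic cohesin subunit, was at 1 TPM or more in both libraries, and Tex101 was at 0.

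The beta ring held the most abundant subunit of all. Psmb6, which carries the caspase-like site, was at 512 TPM in replicate 2 against 489 TPM in replicate 1, or 500.2 ± 16.2 TPM (SD, n = 2). It ranked at the top in both libraries, and its level was above that of every other member in each. The next 2 by mean level were Psmb3 and Psmb2, structural subunits without a protease site. Psmb3 was at 334 TPM in replicate 2 against 345 TPM in replicate 1, and Psmb2 was at 341 TPM in replicate 2 against 336 TPM in replicate 1. The order of Psmb3 and Psmb2 turned between the libraries, so these neighbours did not differ beyond their spread. Psmb5, the chymotrypsin-like subunit, was at 273 TPM in replicate 2 against 268 TPM in replicate 1. Psmb7, the trypsin-like subunit, was the lowest of the beta ring, at 185 TPM in replicate 2 against 178 TPM in replicate 1. The catalytic subunits therefore spanned 2.77-fold in replicate 2 and 2.75-fold in replicate 1, although the assembled particle holds them in equal number. Psmb1 (294 TPM in replicate 2, 276 TPM in replicate 1) and Psmb4 (227 TPM in replicate 2, 229 TPM in replicate 1) completed the structural part. Over protein coding transcripts only, Psmb4 was the lowest of the beta ring, at 120.4 TPM in replicate 2 against 113 TPM in replicate 1.

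The immune counterparts were low, and unequally so. Psmb8, which replaces Psmb5, was at 2.68 TPM in replicate 2 against 3.30 TPM in replicate 1, with 73 counts in each. Psmb9, which replaces Psmb6, was at 1.28 TPM in replicate 2 against 1.15 TPM in replicate 1, from 35.1 counts in replicate 2 and 25.7 in replicate 1. Psmb10, which replaces Psmb7, was far above both, at 31.6 TPM in replicate 2 against 34.7 TPM in replicate 1. Within each heart the log2 ratio of Psmb8 to Psmb5 was −6.67 in replicate 2 and −6.34 in replicate 1, a mean of −6.51 ± 0.23 (SD, n = 2), so that Psmb5 was 90.9-fold higher. For Psmb9 to Psmb6 it was −8.64 in replicate 2 and −8.73 in replicate 1, a mean of −8.69 ± 0.06, or 412-fold higher Psmb6, and by the deposited posterior mean TPM the mean was −8.09, or 273-fold, with Psmb9 at 1.86 TPM in replicate 2 against 1.71 TPM in replicate 1. For Psmb10 to Psmb7 it was −2.55 in replicate 2 and −2.36 in replicate 1, a mean of −2.45 ± 0.13, or 5.47-fold higher Psmb7. The ranges of the 3 ratios did not overlap, and the distances between them were larger than the SD of any. Psmb10 exceeded Psmb8 by 11.1-fold and Psmb9 by 27.3-fold (18.1-fold by posterior mean TPM), and the 3 immune subunits together made up 3.54% of the TPM of the 6 catalytic genes in replicate 2 and 4.02% in replicate 1.

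**Figure D2:**
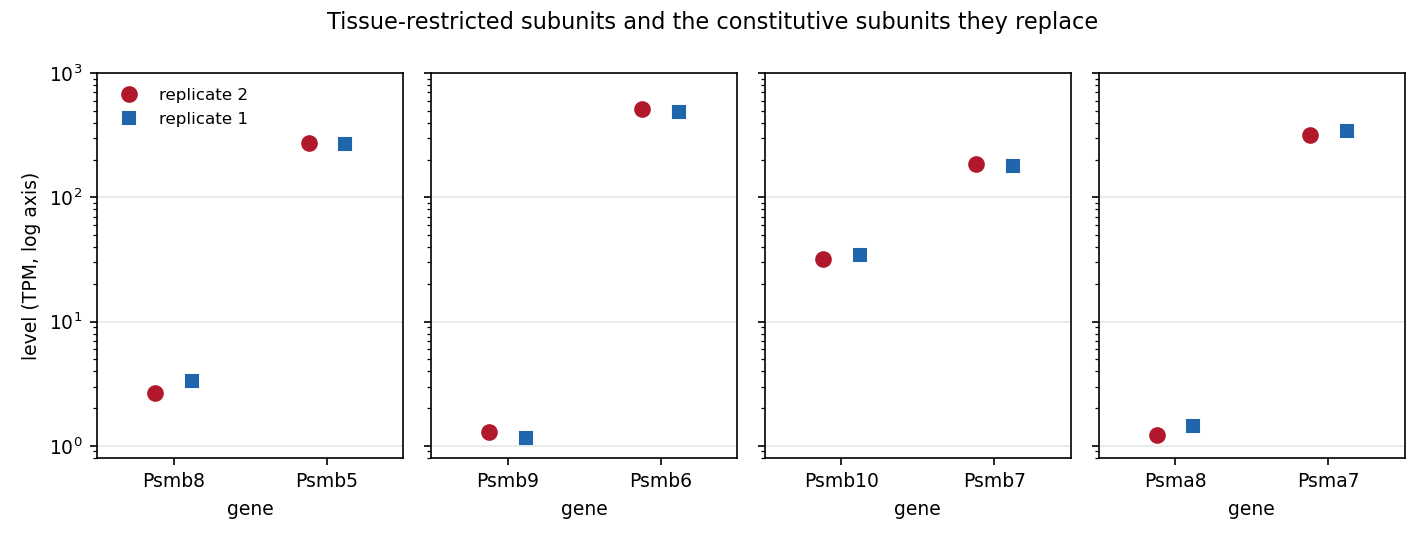
Level in TPM on a log axis of each immune or testis subunit (left in each panel) and the subunit it replaces (right), with replicate 2 as circles left of replicate 1 as squares. The gap is narrowest for Psmb10 and Psmb7, at 5.47-fold, and widest for Psmb9 and Psmb6, at 412-fold (273-fold by posterior mean TPM, not drawn).

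Psmb8 and Psmb9 lie in the MHC region of mouse chromosome 17 (GRCm38), with the peptide transporter gene Tap1 between them and Tap2 beyond Psmb8. Psmb9 spans chr17:34181987-34187764 on the minus strand and overlaps Tap1 by 212 bases, and Psmb8 spans chr17:34197721-34201454 on the plus strand. The strand use of the counting is not given in the sources used here, so reads of Psmb9 and Tap1 in the overlap cannot be told apart. Of the genes around them, Tap1 was at 1.45 TPM in replicate 2 against 1.33 TPM in replicate 1, and Tap2 was at 1.61 TPM in replicate 2 against 2.06 TPM in replicate 1. H2-DMa was at 1.89 TPM in replicate 2 against 2.46 TPM in replicate 1, and H2-Ab1 was higher, at 7.01 TPM in replicate 2 against 5.50 TPM in replicate 1, both MHC class II genes. Brd2, a widely expressed chromatin reader, was far higher, at 53.3 TPM in replicate 2 against 49.0 TPM in replicate 1. Psmb10 lies elsewhere, on chromosome 8. Of 15 genes of MHC class I presentation and interferon signalling, 14 were at 1 TPM or more in both libraries. Among the 12 that averaged 100 counts or more, 11 were lower in replicate 2, with a median log2 difference of −0.23. Under spike-in scaling the median was −0.12, with 10 of the 12 lower. Irf8 and Erap1 were the 2 at least 25% apart (the higher library at least 25% above the lower), both lower in replicate 2. Over all 11958 genes that averaged 100 counts or more, 6109 were lower in replicate 2, and 393 were lower by at least that much. In either direction, 8.65% of them were that far apart. For Irf8, an interferon regulatory factor, the length-scaled level was nearly equal, at 6.76 TPM in replicate 2 against 6.84 TPM in replicate 1, with an effective length of 1766 bases in replicate 2 and 2257 bases in replicate 1. For Erap1, a peptidase that trims peptides for MHC class I, it was 8.90 TPM in replicate 2 against 11.4 TPM in replicate 1. The most abundant were Calr and Pdia3, chaperones of the endoplasmic reticulum, at 386 and 259 TPM in replicate 2 and at 408 and 313 TPM in replicate 1. The leukocyte markers had a median log2 difference of −0.30 over 12 genes (−0.19 under spike-in scaling), of which 5 were that far apart and lower in replicate 2. The part of leukocytes in the level of the immune subunits was not tested. Psmb10 itself had 779 counts in replicate 2 and 850 in replicate 1, a log2 difference of −0.18 (−0.32 to −0.04), and Psmb8 and Psmb9 had too few counts to show a difference of that size.

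To set the regulatory sequence beside these levels, the RefSeq promoter windows (assembly GRCm38.p6, 250 bases before to 50 after the start) were searched on both strands for 5 motifs. A window was found for 32 of the 39 genes. The antioxidant response element core, TGACNNNGC, is the letter pattern bound by Nfe2l1 and Nfe2l2, the factors known to induce proteasome genes. It occurred in the windows of 5 of 32 subunits (15.6%), namely Psmb5, Psmb6, Psmc6, Psmd12 and Psmd9, and in those of 14.0% of all 27025 genes. The stretches before the annotated exons of Psmb6, Psmb5, Psmc6 and Psmd12 are shown because they hold the match, among them both the most abundant subunit and the chymotrypsin-like subunit. The window of Psmd9 is not shown, since it lies within the gene as GENCODE M21 annotates it. Capitals mark the match, which reads on the gene's strand in Psmb6 and Psmb5 and on the other strand in Psmc6 and Psmd12.
Psmb6 chr11:70525107-70525356 (+ strand): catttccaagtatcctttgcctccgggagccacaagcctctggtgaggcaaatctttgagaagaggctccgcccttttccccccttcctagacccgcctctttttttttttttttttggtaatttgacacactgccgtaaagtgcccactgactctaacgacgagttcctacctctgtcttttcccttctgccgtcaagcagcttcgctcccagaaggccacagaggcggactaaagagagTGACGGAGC
Psmb5 chr14:54618023-54618245 (- strand): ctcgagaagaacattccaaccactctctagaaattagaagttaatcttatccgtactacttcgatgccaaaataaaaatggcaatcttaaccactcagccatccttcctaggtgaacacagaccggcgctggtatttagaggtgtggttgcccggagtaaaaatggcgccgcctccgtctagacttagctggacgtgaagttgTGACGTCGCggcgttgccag
Psmc6 chr14:45329574-45329787 (+ strand): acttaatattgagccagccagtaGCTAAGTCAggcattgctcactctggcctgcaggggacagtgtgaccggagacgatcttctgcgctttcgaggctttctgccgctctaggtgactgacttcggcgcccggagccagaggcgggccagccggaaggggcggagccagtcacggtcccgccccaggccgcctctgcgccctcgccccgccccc
Psmd12 chr11:107479278-107479483 (+ strand): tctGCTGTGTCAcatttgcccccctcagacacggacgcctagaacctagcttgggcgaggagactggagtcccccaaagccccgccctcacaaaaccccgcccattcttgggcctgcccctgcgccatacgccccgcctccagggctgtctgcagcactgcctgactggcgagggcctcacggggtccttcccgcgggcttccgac
Counted from the RefSeq start, the match began at position −9 in Psmb6 and −47 in Psmb5, and at −227 in Psmc6 and −247 in Psmd12. None of the other 4 motifs was in these 4 windows, while that of Psmd9, with its match at −31, also held the interferon stimulated response element core. The CCAAT box, CCAAT, the letters bound by NF-Y, was in the windows of 13 of 32 subunits (40.6%) and of 41.1% of all genes. The interferon gamma activated site, TTCNNNGAA, was in those of 2 subunits, Psmb8 and Psmd2 (6.25%), and of 9.55% of all genes. The core of the interferon stimulated response element, GAAA and GAAA with 2 bases between them, was in those of 3 subunits (9.38%, against 3.99% of all genes), Psmb3, Psmd4 and Psmd9, and TATAAA was in those of 4 (12.5%, against 15.7%). All but the interferon stimulated response element were thus close to or below their share among all genes, and the motif counts describe letters, not binding. The GC content of the subunits' 34 windows had a median of 56.0%, against 52.7% over all windows, and the number of CG dinucleotides had a median of 19, against 7.

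By median, transcripts of the cap stood at a lower level per length than those of the core. The 14 core subunits of the alpha and beta rings had a median of 277 TPM in replicate 2 against 261 TPM in replicate 1. The 17 cap subunits of base and lid had a median of 136 TPM in replicate 2 against 137 TPM in replicate 1. The ratio of the medians was 2.04 in replicate 2 and 1.91 in replicate 1, or 1.98 ± 0.0907 (SD, n = 2). Over all transcripts the groups overlapped little: 10 core subunits in replicate 2 and 11 in replicate 1 were above the highest cap subunit, Psmc3. In replicate 2 only Psmc3 was above the lowest core subunit, Psma5, and in replicate 1 Psmc3, Psmc4, Psmd2 and Psmd8 were. Over protein coding transcripts only, where Psma3 and Psmb4 were the lowest core subunits, 15 of the 17 cap subunits in replicate 2 and 14 in replicate 1 were above Psma3, while the medians stood at 271 TPM for the core and 132 TPM for the cap in replicate 2, and at 255 TPM and 131 TPM in replicate 1. Core transcripts are also shorter, with effective lengths of 669 to 1140 bases against 1217 to 2967 bases in the cap. Across the 31 genes, which are not independent, the Spearman correlation of mean TPM with length was −0.85, with −0.80 within the core (14 genes) and −0.27 within the cap (17 genes). Length and particle cannot be told apart between the groups, since their lengths do not overlap, and the part of length in the level was not tested.

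**Figure D3:**
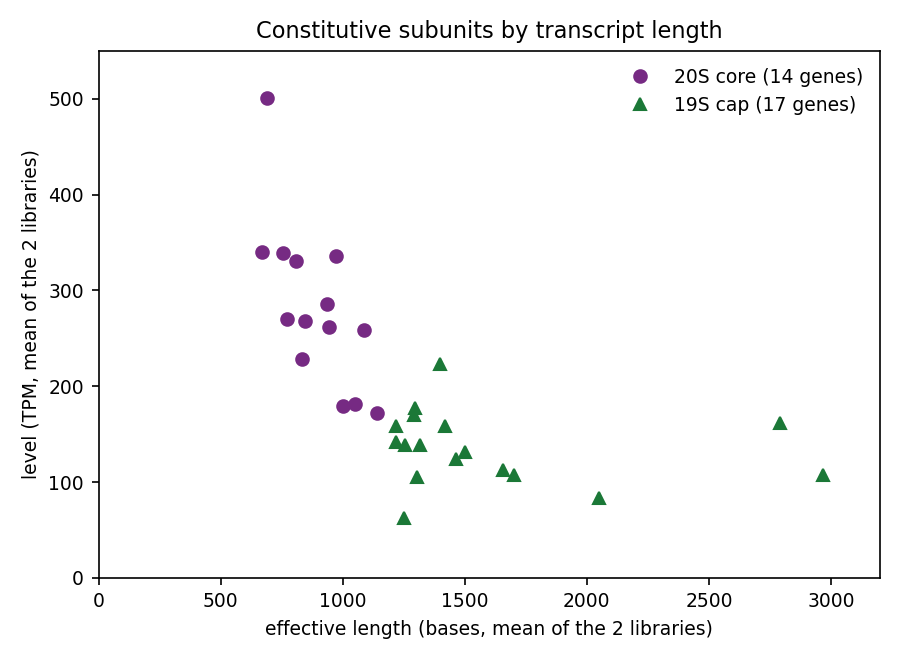
Mean TPM of the 2 libraries against effective length in bases for the 14 core subunits (circles) and the 17 cap subunits (triangles). Core genes are all shorter than cap genes, and the Spearman correlation of level with length is −0.80 among core genes and −0.27 among cap genes.

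The ATPase ring of the base spanned 2.17-fold in replicate 2 and 1.97-fold in replicate 1. Psmc3 was the highest, at 230.4 TPM in replicate 2 against 215 TPM in replicate 1, and Psmc2 the lowest, at 106 TPM in replicate 2 against 109 TPM in replicate 1. Psmc4 (166 TPM in replicate 2, 174 TPM in replicate 1), Psmc1 (159 TPM in replicate 2, 158 TPM in replicate 1) and Psmc5 (156 TPM in replicate 2, 161 TPM in replicate 1) lay close together, and Psmc6 was at 128 TPM in replicate 2 against 119 TPM in replicate 1. Of the other base subunits, Psmd2 and Psmd1 are the large scaffold proteins, and Psmd4 is a ubiquitin receptor. Psmd2 was at 157 TPM in replicate 2 against 165 TPM in replicate 1, with the largest mean count of all members, 9441. Psmd1 was at 104 TPM in replicate 2 against 111 TPM in replicate 1, and Psmd4 was at 147 TPM in replicate 2 against 137 TPM in replicate 1.

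The lid had a median of 123 TPM in replicate 2 against 120.5 TPM in replicate 1 over its 8 subunits. Psmd14, the deubiquitinase that removes the chain from the substrate, was at 108 TPM in replicate 2 against 103 TPM in replicate 1, and its partner Psmd7 was at 132 TPM in replicate 2 against 130.2 TPM in replicate 1. The other lid members named here are scaffold proteins: Psmd8 was highest, at 172 TPM in replicate 2 against 184 TPM in replicate 1, followed by Psmd6 (140.3 TPM in replicate 2, 137 TPM in replicate 1), Psmd11 (136 TPM in replicate 2, 141 TPM in replicate 1) and Psmd12 (114 TPM in replicate 2, 111 TPM in replicate 1). The lowest 2 were Psmd3, at 93.1 TPM in replicate 2 against 74.4 TPM in replicate 1, and Psmd13, at 83.1 TPM in replicate 2 against 42.0 TPM in replicate 1. The chaperones that assemble the base without staying in the finished particle were lower than all 31 constitutive subunits in replicate 2 over all transcripts, and Psmd5 was above Psmd13 there over coding transcripts. Psmd5 was at 49.2 TPM in replicate 2 against 50.9 TPM in replicate 1, Psmd10 at 30.4 TPM in replicate 2 against 31.7 TPM in replicate 1, and Psmd9 at 23.3 TPM in replicate 2 against 18.8 TPM in replicate 1. In replicate 1, Psmd5 was above Psmd13. Over the 31 constitutive subunits the coefficient of variation of the TPM was 48.0% in replicate 2 and 49.0% in replicate 1, and log2 levels of the libraries correlated with a Pearson r of 0.97 across these genes, a description over genes that share both libraries.

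Between the hearts, Psmd13 was the subunit furthest apart. The difference was taken on TMM-scaled expected counts as log2 of replicate 2 over replicate 1, for the 35 subunits that averaged 100 counts or more (all but Psma8, Psmb8, Psmb9 and Psmb11). Of these, 17 were higher and 18 lower in replicate 2, with a median of −0.019, and 31 lay within 0.15 of 0. The median absolute difference was 0.06, against 0.10 over all 11958 genes with such a count and 0.08 over the 6107 genes whose mean count lay in the range of these 35. Within 0.15 of 0 lay 8129 of the 11958 genes and 4867 of the 6107, so closeness is not read as a trait of the family. These genes of like count share the range, 814.5 to 9441 counts, but were not matched within it. Their medians were 35.4 TPM and an effective length of 2540 bases. For the 34 subunits other than Psmd13 the medians were 165 TPM and 1238 bases. The part of counting error in the smaller differences of the subunits was not tested. Only Psmd13 was at least 25% apart, and 8.65% of all genes that averaged 100 counts or more were, as were 2.47% of the genes of like count. The number called, 1 of 35, is thus near the share among genes of like count and is not read as a trait of the family. The subunit nearest to the threshold from outside was Psmd3, at 1.21-fold, and Psmd13, the only subunit past it, was well beyond it at 2.07-fold. The SD of the differences was 0.21, and 0.10 without Psmd13, against 0.29 over the genes of like count. Spike-in scaling moved every log2 difference by 0.11, which turned the median to 0.093 and put 30 of the 35 above 0, and scaling by the total count gave a median of 0.012, so no direction is drawn for the family.

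**Figure D4:**
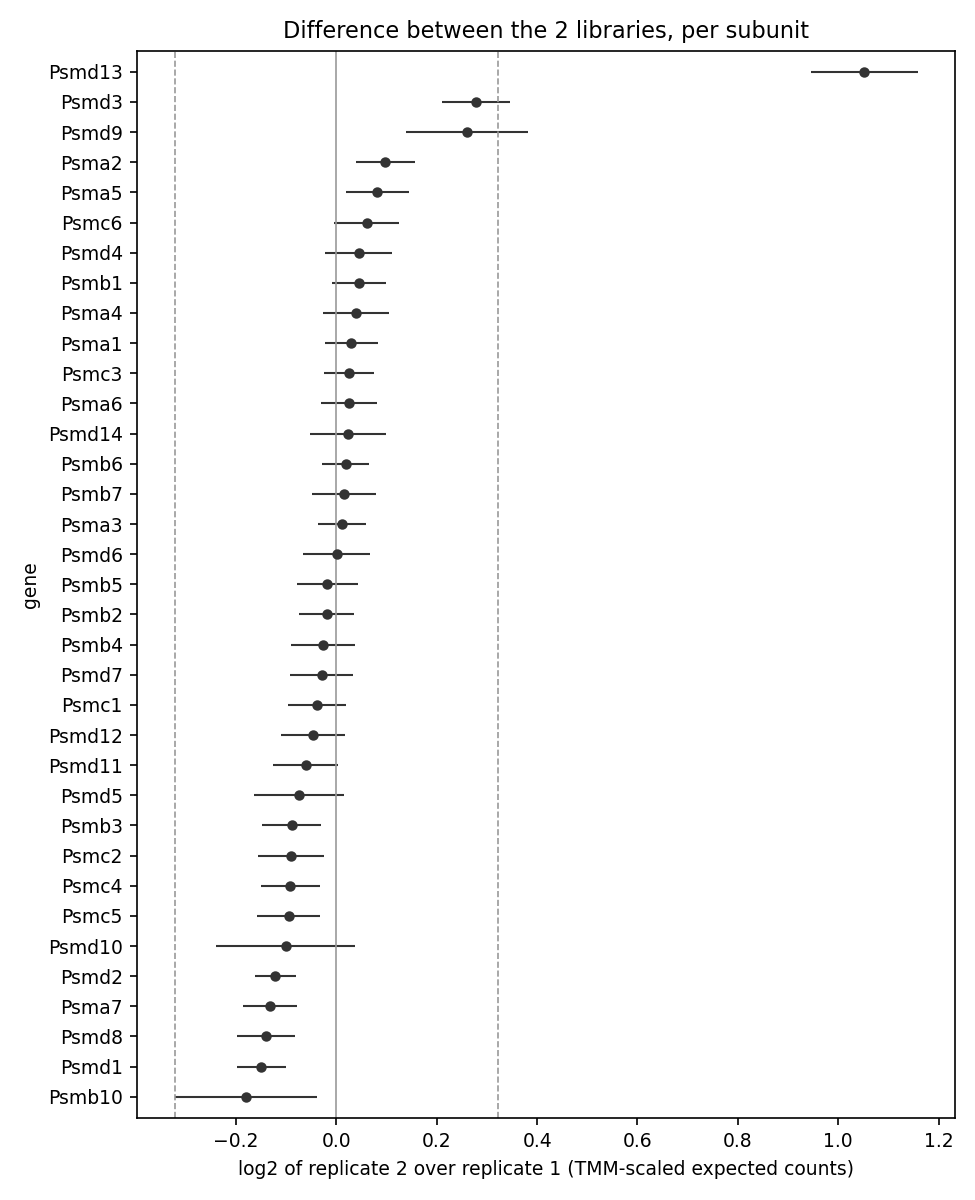
Log2 of replicate 2 over replicate 1 on TMM-scaled expected counts for 35 subunits, with exact 95% intervals for counting error as bars and dashed lines at a 25% difference. Psmd13 stands at 1.05, beyond the line, and Psmd3 and Psmd9 lie just short of it.

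Psmd13, a scaffold protein of the lid, spans chr7:140881968-140898643 on the plus strand (GRCm38). It had 2278 expected counts in replicate 2 and 1058 in replicate 1, a log2 difference of 1.05 (95% interval of counting error 0.95 to 1.16), or 2.07-fold. The length-scaled level was 1.98-fold higher in replicate 2. Among the 6107 genes of like count, 7 (0.115%) were at least 2-fold apart, of which 3 (0.0491%), Psmd13 among them, were higher and 4 (0.0655%) lower in replicate 2. The other 2 of the higher genes were Xist, the X-inactivation RNA, and Nnat, an imprinted membrane protein gene with 1273 counts in replicate 2 and 611 in replicate 1. The 4 lower in replicate 2 were Ddx3y and Eif2s3y on the Y chromosome, Alas2, the erythroid haem synthesis enzyme, and Spp1, osteopontin.

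The difference of Psmd13 was not spread evenly over its transcripts. The table gives 13 transcripts for the gene. The 5 protein coding transcripts held 1687 counts in replicate 2 and 693 in replicate 1, which is 2.34-fold (2.14 to 2.56). The transcript annotated for nonsense-mediated decay held 390 counts in replicate 2 and 201 in replicate 1, 1.86-fold (1.57 to 2.23). The 5 retained-intron transcripts held 156 counts in replicate 2 and 140.4 in replicate 1, 1.07-fold (0.848 to 1.36), an interval that holds 1 and does not reach those of the coding and decay classes. The remaining 2 transcripts, absent from GENCODE M21, held 45.7 counts in replicate 2 and 23.3 in replicate 1. The leading transcript, Psmd13-201, had 1561 counts in replicate 2 and 679 in replicate 1, and protein coding transcripts made up 55.0% of the TPM of the gene in replicate 2 and 42.3% in replicate 1. Division of reads among transcripts is itself an estimate, while the deposited posterior SD of the gene count was 0.0132% of that count in replicate 2 and 0.0246% in replicate 1.

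The genes around Psmd13 did not share its difference. Sirt3, a mitochondrial deacetylase on the opposite strand, overlaps the start of Psmd13 by 342 bases and had 805 counts in replicate 2 and 956 in replicate 1, a log2 difference of −0.30 (−0.44 to −0.17). Gm15542, a processed pseudogene that lies within an intron of Psmd13-201 on the same strand, had 193 counts in replicate 2 and 177 in replicate 1, a difference of 0.07 (−0.23 to 0.37). The deposited posterior SD of the Gm15542 count was 33.7 counts in replicate 2 and 33.0 in replicate 1, which this interval leaves out. Cox8b, next to the 3′ end, had 1623 counts in replicate 2 and 1609 in replicate 1, a difference of −0.04. Ric8a and Bet1l, beyond Sirt3, stood at −0.10 and 0.19. Further out on that side, Zfp941 stood at 0.15, on 53 counts in replicate 2 and 46 in replicate 1. Pgghg and Ifitm2, beyond Cox8b, stood at 0.15 and 0.12. Reads of Sirt3 and Psmd13 in their overlap cannot be told apart, and the cause of the difference in Psmd13 was not tested.

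**Figure D5:**
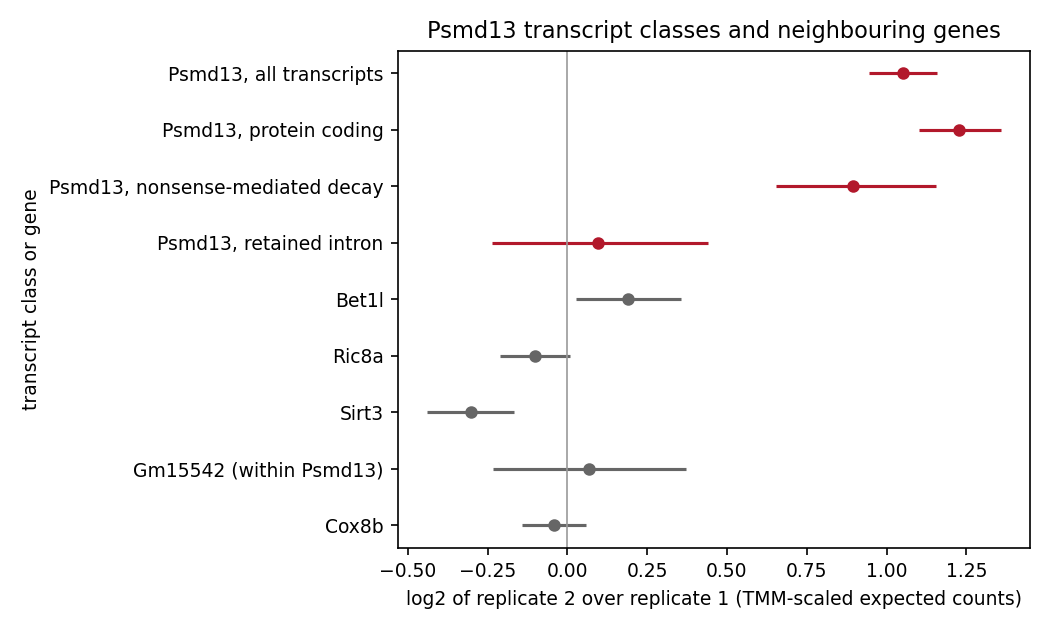
Log2 of replicate 2 over replicate 1 on TMM-scaled expected counts, with exact 95% intervals for counting error, for the transcript classes of Psmd13 (red) and 5 nearby or overlapping genes (grey). Coding and decay transcripts lie near 1, and retained-intron transcripts and the pseudogene within the gene lie near 0.

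Psmd3, another lid scaffold, and Psmd9, a base chaperone, were the next furthest apart. Psmd3 had 4019 counts in replicate 2 and 3191 in replicate 1, a log2 difference of 0.28 (0.21 to 0.35). Psmd9 had 1225 counts in replicate 2 and 985 in replicate 1, a log2 difference of 0.26 (0.14 to 0.38). Both intervals lie above 0, and both genes passed the 25% threshold under spike-in scaling, as did Psmd3 on its deposited TPM, with a log2 difference of 0.32. The most abundant subunits lay close to 0, with Psmb6 at 0.02 (−0.03 to 0.07), Psmb3 at −0.09 (−0.15 to −0.03) and Psmb2 at −0.02 (−0.07 to 0.04), as did the other catalytic subunits, Psmb5 at −0.02 (−0.08 to 0.04) and Psmb7 at 0.01 (−0.05 to 0.08). The rarest had wide intervals around 0: Psma8 stood at −0.28 (−0.92 to 0.35), Psmb8 at −0.05 (−0.54 to 0.43) and Psmb9 at 0.39 (−0.40 to 1.16), so that no difference was detectable at their depth. Of the subunits that averaged 100 counts or more, the lowest in replicate 2 were as follows: Psmb10 stood at −0.18, Psmd1 at −0.15, Psmd8 at −0.14, Psma7 at −0.13 and Psmd2 at −0.12, and these 5 were also below 0 under spike-in scaling, at −0.07 to −0.01. Within the lid, Psmd13 and Psmd3 were higher in replicate 2 and Psmd8 lower, while Psmd6, with 3721 counts in replicate 2 and 3581 in replicate 1, was at 0.00.

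Most subunits were read from a single dominant transcript. The tables list 169 transcripts for the 39 genes, and 9 genes have only 1. Of the 30 with several, 28 had the same leading transcript by TPM in both libraries, and in 18 it held at least 90% of the TPM in both. Protein coding transcripts made up at least 90% of the TPM in both libraries for 33 of the 39 genes. Psma3 was the main exception: its leading transcript, Psma3-203, is annotated as a retained intron and held 38.0% of the TPM in replicate 2 and 35.7% in replicate 1, and coding transcripts held 26.2% in replicate 2 and 27.8% in replicate 1. The deposited posterior SD was also the largest in reads for Psma3, at 1.55% of the count in replicate 2 and 1.56% in replicate 1. In Psmb4 the coding Psmb4-201 and the retained-intron Psmb4-202 were nearly even, with 53.0% and 46.1% in replicate 2 and 49.4% and 50.3% in replicate 1. In Psmd4 the coding forms Psmd4-202 and Psmd4-201 held 56.3% and 38.6% in replicate 2 and 54.7% and 41.0% in replicate 1. In Psmb8 the leading form turned from one library to the other, with Psmb8-201 at 71.3% in replicate 2 and 42.1% in replicate 1, on 73 counts each. By share of expected counts Psmb8-201 led in both, at 84.2% in replicate 2 and 60.7% in replicate 1, and all 30 genes had the same leading transcript in both libraries. No share over all genes is set beside these transcript counts, so they are not read as a trait of the subunits.

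Few of the other genes of the pathway were at least 25% apart, as were few of all genes (8.65%, or 2.47% at like count), so the counts below are near the background. Of 10 further cap and assembly genes, 9 were matched (Paaf1 was not), and 0 of 9 were at least 25% apart. Their median was 77.4 TPM in replicate 2 against 76.8 TPM in replicate 1. Pomp, the chaperone that matures the core, was at 229.6 TPM in replicate 2 against 207 TPM in replicate 1, and Sem1, a small lid subunit, was at 197 TPM in replicate 2 against 195 TPM in replicate 1. None of the 5 activator and inhibitor genes was that far apart either: Psme1 and Psme2, which form the interferon-inducible activator ring, were at 195 and 179 TPM in replicate 2 and at 175 and 183 TPM in replicate 1. Both stood far above Psmb8 and Psmb9. Ubb, a polyubiquitin gene, was at 2206 TPM in replicate 2 against 2093 TPM in replicate 1.

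Of 13 genes for ubiquitin activation, shuttling and chain removal, 1 was at least 25% apart. It was Rad23b, a shuttle that carries tagged proteins to the cap, with 2193 counts in replicate 2 and 1506 in replicate 1 (log2 0.49), yet at 45.2 TPM in replicate 2 against 44.2 TPM in replicate 1, with an effective length of 2305 bases in replicate 2 and 1629 bases in replicate 1. Vcp, the segregase that extracts substrates, was at 365 TPM in replicate 2 against 373 TPM in replicate 1, and Uba1, the main ubiquitin-activating enzyme, was at 114 TPM in replicate 2 against 115 TPM in replicate 1. Of 9 regulators of proteasome genes 0 were apart, with Nfyc, a subunit of NF-Y, at 83.3 TPM in replicate 2 against 80.9 TPM in replicate 1 and Nfe2l2 at 43.1 TPM in replicate 2 against 41.0 TPM in replicate 1. Of 9 ubiquitin ligase genes chosen for muscle, 1 was apart, Trim54, with 203 counts in replicate 2 and 152 in replicate 1. The most abundant of them were Trim55, a sarcomere-associated ligase, at 195 TPM in replicate 2 against 219 TPM in replicate 1, and Asb2, at 197 TPM in replicate 2 against 184 TPM in replicate 1. As other multi-subunit particles, the 77 cytosolic ribosomal proteins had a median log2 difference of 0.08, with 73 of 77 higher in replicate 2. Of all 11958 genes that averaged 100 counts or more, 5849 were higher. Under spike-in scaling the cytosolic median was 0.20, with 77 of 77 higher. The 76 mitochondrial ribosomal proteins had a median of −0.02 that turned to 0.09 under spike-in scaling. In neither of these ribosomal sets was any gene at least 25% apart. That share was 8.65% over all genes that averaged 100 counts or more and 2.47% in the count range of the subunits. No conclusion on Psmd13 is drawn from the ribosomal sets.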

How the data were processed

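Total RNA-seq of 2 E14.5 hearts was analysed from the deposited gene and transcript tables. Reads were assigned on mm10 with annotation M4, per the file headers and the deposited notes, and the sources used here name no aligner, quantifier or strand setting. The authors deposited expected counts (estimated counts, not scaled by depth), TPM scaled over all rows with spike-ins, and a posterior SD of each count. Symbols and positions came from GENCODE M21 by identifier (42462 of 43346 gene rows, 98.0%), and promoters from RefSeq. Members and lists were chosen with earlier results of these data known.

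Gene rows held 27932136 counts in replicate 2 and 27469198 in replicate 1. Levels are deposited TPM. Differences are log2 of replicate 2 over replicate 1 on counts scaled by TMM (edgeR 4.0.16, R 4.3.3) with a prior of 0.5, for genes averaging 100 counts or more. Intervals are exact (Clopper-Pearson, 95%) on the share of the summed counts; reads are not independent molecules, and intervals cover counting error only. With 1 group of 2 libraries no p-value was computed. The fold computation was tested on simulated data. The text names every member, with the 2 most abundant genes of each pathway list and any at least 1.5-fold apart, except that 1 list gene is not reported here; genes near Psmd13, those of like count 2-fold apart, Rad23b, Trim54, Irf8 and Erap1 were named after their values were seen. Alternatives were other scalings (DESeq2 1.42.0 size factors, total count, spike-ins), priors, count minimums, posterior means, coding transcripts only and each library alone; the order of levels over coding transcripts and the posterior ratio of Psmb10 to Psmb9 were added after seeing the data.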

Additional observations from a re-analysis of the deposited data

How the results depend on the processing

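Most values held under the alternatives tried. The median level of the subunits, 159 TPM, was 171 TPM when rescaled over rows with an Ensembl identifier only and 155 TPM by posterior means, and ranged from 157 to 160.0 TPM with each library alone. The coefficient of variation of the constitutive subunits was 51.2% over coding transcripts only, against 48.4%. The median log2 difference of −0.019 turned to 0.012 with scaling by the total count and to 0.093 with spike-in scaling. The number of subunits at least 25% apart, 1 (Psmd13), was 3 with spike-in scaling (with Psmd3 and Psmd9), 2 with a mean count of at least 10 (with Psmb9), 3 with no filter on low counts (with Psmb9 and Psmb11) and 2 at a threshold of 20% (with Psmd3), a setting chosen after seeing the data. The Psmb9 to Psmb6 ratio was −8.09 by posterior means. The share of counts held by the subunits was 0.530% over all rows and 0.583% without mitochondrial and haemoglobin genes. The log2 difference of Psmd13 ranged from 0.98 to 1.36 over its 7 alternatives. The causes were not tested. Depth limits Psma8, Psmb8, Psmb9 and Psmb11, each with a mean count under 100. No paired analysis was possible because the series has 1 group.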
